A study of Mus musculus with 8 samples.

Results

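The genes described here are 10 markers of macrophages: Cd68, Csf1r, Cd14, Cd163, Mrc1, Lyz2, C1qa, C1qb, C1qc and Ccr2. They were taken by symbol, through the accessions that name the array's probes, and 9 of the 10 matched a probe, with 11 of the 39429 probes between them, where 19987 genes were named by a probe. No probe carried an accession that the gene table pairs with Cd68, a glycoprotein of macrophage lysosomes, so the expression of Cd68 was not analysed here. Samples of heart from male C57BL6 mice were measured, 8 in all, each on its own 1-colour array, and are called hearts below. The mice of the 4 control samples were positive for Cre recombinase and lacked a floxed IGF-1R gene. Those of the 4 double transgenic samples, called dtg, were merCremer/+ IGFloxP/IGFloxP, that is, they carried a Cre that tamoxifen switches on and floxed alleles of Igf1r, the receptor for insulin-like growth factor 1. The labels describe 4OH-Tamoxifen for the animals of both groups, at 8 months of age (500 µg on each of 10 days), meant to cut out exon 3 of Igf1r, with hearts taken 6 weeks later. The promoter that drives merCremer and the part of the heart sampled are not given in the sources used here. The design compares hearts meant to carry the induced deletion with hearts that were not. Nothing in the labels states that every sample is a separate animal, so p-values cover only the spread among these 8 arrays, part of which may be technical.

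Macrophages are the most common immune cells of the resting heart, where they clear debris and sample the tissue. Resident cells, which largely renew themselves in place, carry scavenger receptors such as CD163 and the mannose receptor MRC1 and make the complement protein C1q. Cells recruited from blood monocytes arrive through CCR2, the receptor for the chemokine CCL2, and macrophages of both origins depend on CSF1R, the receptor for CSF1 and IL-34. In a whole-tissue sample such as these, fewer macrophages and less RNA per macrophage cannot be told apart.

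C1qa, C1qb and C1qc encode the 3 chains of C1q and neighbour one another on chromosome 4, with no other gene of the table between them. C1qb and C1qc are shown because the probes of these neighbours went different ways from heart to heart. Cd163 and Ccr2 are shown because they varied most between hearts. Each window runs from 250 bases before to 50 bases after the annotated start of the gene, in the direction of transcription, from RefSeq on GRCm38.p6. The windows are chr4:136886151-136886450 and chr4:136892865-136893164 on the minus strand, and chr6:124304401-124304700 and chr9:124101933-124102232 on the plus strand. Capitals mark GAGGAA, the core bound by the myeloid factor PU.1, or its reverse complement.
C1qb: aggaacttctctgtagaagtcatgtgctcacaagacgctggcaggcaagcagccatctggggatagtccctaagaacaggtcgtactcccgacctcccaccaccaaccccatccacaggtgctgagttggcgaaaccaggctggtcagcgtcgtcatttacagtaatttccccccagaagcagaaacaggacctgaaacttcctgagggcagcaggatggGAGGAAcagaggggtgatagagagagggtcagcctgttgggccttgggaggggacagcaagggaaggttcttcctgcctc
C1qc: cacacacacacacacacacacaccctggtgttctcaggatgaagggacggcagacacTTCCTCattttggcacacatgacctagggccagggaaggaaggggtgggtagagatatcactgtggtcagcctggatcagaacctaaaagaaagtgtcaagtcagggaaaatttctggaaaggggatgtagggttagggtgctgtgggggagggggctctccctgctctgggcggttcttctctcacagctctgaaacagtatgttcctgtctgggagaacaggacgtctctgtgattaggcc
Cd163: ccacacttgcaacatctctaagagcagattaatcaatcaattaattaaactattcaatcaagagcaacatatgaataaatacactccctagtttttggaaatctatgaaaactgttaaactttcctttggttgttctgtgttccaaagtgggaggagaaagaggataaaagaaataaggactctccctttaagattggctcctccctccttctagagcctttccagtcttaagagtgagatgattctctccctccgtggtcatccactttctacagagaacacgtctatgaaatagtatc
Ccr2: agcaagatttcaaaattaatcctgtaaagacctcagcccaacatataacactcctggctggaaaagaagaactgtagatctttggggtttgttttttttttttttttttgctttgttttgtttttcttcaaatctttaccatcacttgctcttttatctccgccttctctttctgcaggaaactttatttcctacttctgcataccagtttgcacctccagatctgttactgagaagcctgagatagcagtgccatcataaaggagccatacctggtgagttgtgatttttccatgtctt
The core occurred once in the C1qb window, starting at -30 from the start, and once in the C1qc window, on the opposite strand at -193. The windows of Cd163, Ccr2 and Lyz2 held no match, that of Mrc1 held 3, and that of Cd68 held 2. Of all 32851 windows in the table, 28.3% held the core on either strand. Searched on both strands in the same way were TGCTGAC, a site of MAF factors (in 4.67% of windows), TTGCGCAA, the palindrome of C/EBP factors (in 0.183%), and TATAAA, the TATA box (in 13.6%). None of these occurred in the windows of the 7 members reported here. The windows of Cd14 and Csf1r were left out, and the table held none for C1qa. A match of letters is a description of the window and not evidence of binding.

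Values below are log2 signal relative to the array's 75th percentile, so that 0 is the signal of a probe at that percentile. Levels are compared within a probe only. All 11 probes were well above background on all 8 arrays, and none was saturated. No member passed the test between the groups. In limma's test over 21412 genes and unnamed features, 0 of 9 members passed an adjusted p of 0.05, against 0% of all features, and 0 of 9 reached an unadjusted p under 0.05, against 0.757% of all features. Of the differences 4 were above 0 and 5 were below it, with a median of -0.00015, where the median over all features was 0.020 and 57.4% lay above 0. The median size of a member's difference was 0.037, beside 0.079 for all features. With this scaling the 95% interval of the difference lay within a change of 2-fold in either direction for every one of the 9 members. Intervals were not computed for other scalings, under which the Cd163 difference moved, as given below. The groups overlapped for all 9 members, and 0.547% of all features showed no overlap.

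**Figure D1:**
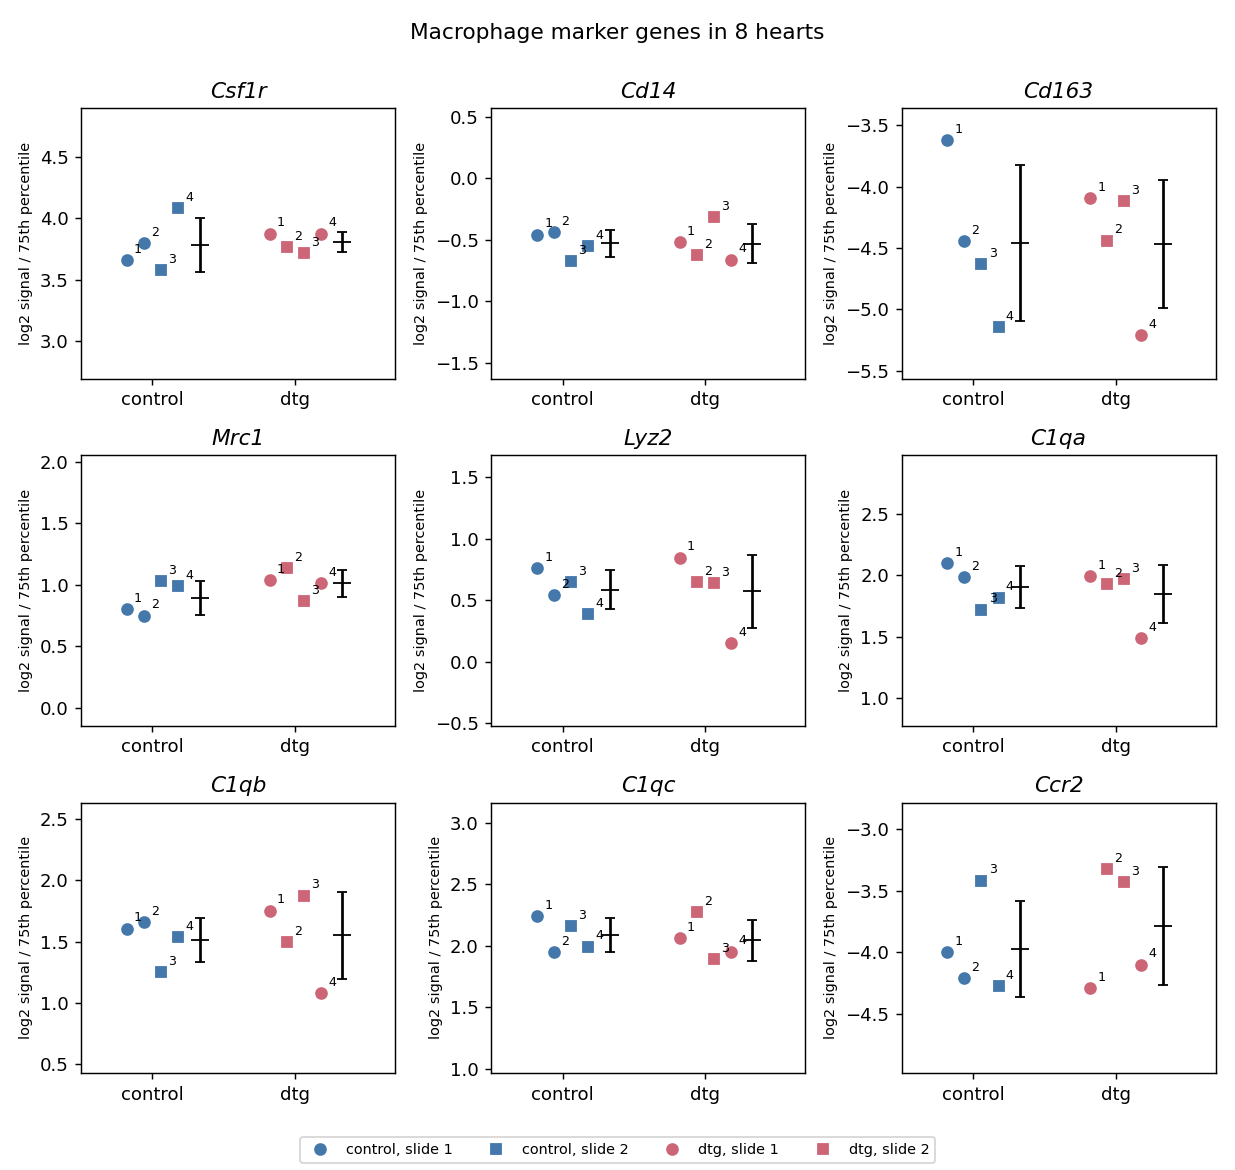
Log2 signal relative to the array's 75th percentile (vertical axis, the same span of 2.2 log2 units in each panel) for the 9 measured macrophage markers, with 1 point per heart numbered by its replicate, circles for slide 1, squares for slide 2 and black bars for the group mean ± SD (n = 4). The groups overlap in every panel, and Cd163 and Ccr2 spread the most.

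Among the members shared by resident and recruited cells is Csf1r, whose product carries the survival signal of the lineage. The brightest of its 3 probes read 3.66, 3.80, 3.58 and 4.08 in controls 1 to 4 and 3.88, 3.77, 3.72 and 3.88 in dtg 1 to 4. All dtg values lay inside the range of the controls. The means were 3.78 ± 0.22 (SD, n = 4) and 3.81 ± 0.079 (SD, n = 4), a difference of 0.028 (SE 0.13, limma, adjusted p = 1). Its interval of -0.27 to 0.33 spans 0.827 to 1.26 times the control level. Cd14, the co-receptor that hands lipopolysaccharide to the Toll-like receptor TLR4, read -0.46, -0.44, -0.67 and -0.55 in control and -0.52, -0.63, -0.31 and -0.66 in dtg hearts. The lowest heart was control 3 and the highest dtg 3. The group difference was -0.00015 (SE 0.12, limma, adjusted p = 1). Lyz2, the lysozyme of monocytes, macrophages and neutrophils, read 0.76, 0.54, 0.64 and 0.39 in control and 0.85, 0.65, 0.64 and 0.15 in dtg hearts. Both ends of its range were dtg hearts, dtg 1 at the top and dtg 4 at the bottom. Its difference was -0.014 (SE 0.17, limma, adjusted p = 1).

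The other 2 probes of Csf1r did not follow the brightest probe from heart to heart. Probe A_52_P602091 read -0.38, -0.42, -0.13 and -0.65 in control and -0.18, -0.23, -0.14 and -1.23 in dtg hearts. It was lowest in dtg 4, where the brightest probe stood 0.080 above its own mean. Probe A_55_P2025073 read -1.22, -1.26, -1.47 and -2.00 in control and -1.20, -1.43, -1.63 and -1.64 in dtg hearts. It was lowest in control 4, the heart in which the brightest probe was highest. Tested as probes of their own, these 2 differed by -0.053 (SE 0.26) and 0.012 (SE 0.20) between the groups (limma, adjusted p = 1 for each). The 3 probes thus placed single hearts in different orders while none of them separated the groups.

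Among the resident markers, the C1q genes stood at nearly the same mean in both groups. C1qa read 2.10, 1.99, 1.72 and 1.82 in control and 1.99, 1.93, 1.97 and 1.49 in dtg hearts. The heart dtg 4 lay below every control, and the other 3 dtg hearts lay inside the control range. The difference was -0.062 (SE 0.15, limma, adjusted p = 1). C1qb read 1.60, 1.66, 1.25 and 1.53 in control and 1.75, 1.49, 1.87 and 1.08 in dtg hearts. Here too dtg 4 was the lowest heart, and dtg 3 was the highest. The difference was 0.037 (SE 0.19, limma, adjusted p = 1). C1qc read 2.24, 1.95, 2.16 and 1.99 in control and 2.06, 2.28, 1.89 and 1.95 in dtg hearts. Its highest heart was dtg 2 and its lowest dtg 3, the heart in which C1qb was highest. The difference was -0.041 (SE 0.13, limma, adjusted p = 1).

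The C1qc probe is printed 10 times on each array, which gives the noise between spots of an array, but not that of labelling, hybridization or scanning between arrays. After 4 marked spots were left out, 76 of 80 spots remained. The SD between spots of 1 array lay between 0.039 and 0.074, with a pooled value of 0.057. The SD between the 8 heart means was 0.14, or 2.51 times the pooled spot SD, and the means spanned 0.38. The spread between hearts was thus larger than that between spots, and it holds the noise between arrays as well as any difference between hearts. The difference between groups was smaller than the spread between hearts. The other members had 1 spot per probe, so no spot noise can be given for them.

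**Figure D2:**
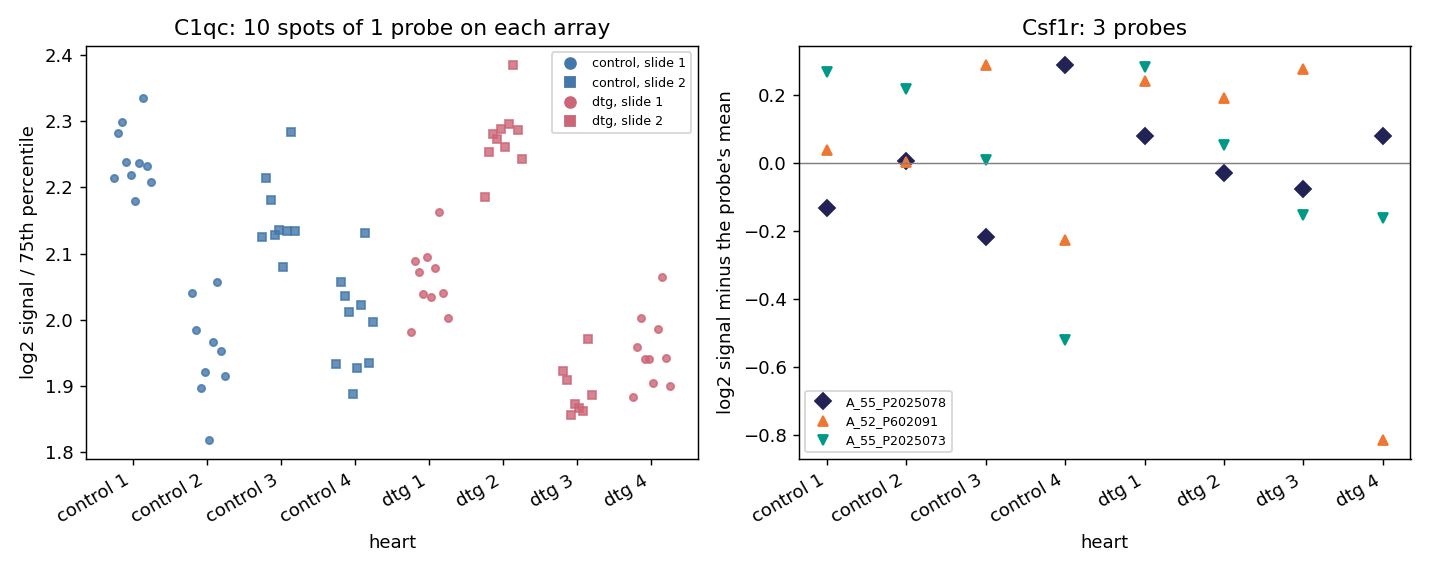
Left, each usable spot of the C1qc probe on each array (76 points), as log2 signal over that array's 75th percentile; right, log2 signal of the 3 Csf1r probes minus each probe's own mean over the 8 hearts. The C1qc spots of dtg 2 and dtg 3 lie apart around means of 2.28 and 1.89, and the Csf1r probes disagree most in control 4 and dtg 4.

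In probe signal, C1qc and its neighbours did not keep one ratio across hearts. Relative to each gene's own mean, C1qc minus C1qb was 0.10, -0.24, 0.37 and -0.075 in control and -0.23, 0.25, -0.51 and 0.34 in dtg hearts. C1qc minus C1qa ran from -0.27 in dtg 3 to 0.27 in dtg 4 and had the same sign in every heart but control 1, where it was -0.046. The group means of C1qc minus C1qb were 0.039 ± 0.26 (SD, n = 4) and -0.039 ± 0.40 (SD, n = 4), and this ratio was not tested between groups. C1qa and C1qb had 1 spot each, and the part of probe noise in these ratios was not tested.

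The scavenger receptors differed in how much they varied. Mrc1, the mannose receptor, read 0.80, 0.75, 1.03 and 0.99 in control and 1.04, 1.13, 0.87 and 1.02 in dtg hearts. All 8 hearts lay within a 1.31-fold range, with controls 1 and 2 the lowest. The difference was 0.12 (SE 0.11, interval -0.14 to 0.38, limma, adjusted p = 1), and its two-sided exact permutation p of 0.2 was the smallest among the members, where the smallest p that this design allows is 0.0286. Cd163, which takes up haemoglobin bound to haptoglobin, read -3.62, -4.45, -4.63 and -5.15 in control and -4.09, -4.44, -4.12 and -5.21 in dtg hearts. Control 1 was highest, control 4 and dtg 4 were lowest, and the range was 3.01-fold. The means were -4.46 ± 0.63 (SD, n = 4) and -4.47 ± 0.52 (SD, n = 4), a difference of -0.0043 (SE 0.36, interval -0.84 to 0.83, limma, adjusted p = 1). With quantile normalization it was -0.26, and in the authors' value table -0.27, neither past the test. Its probe was dim, between 20.4 and 69.9 intensity units before scaling. Control 4 and dtg 4 were also the arrays with the lowest 75th percentiles of signal, 737.6 and 754.6 units against 858.4 to 1027 on the others, and the part of that in the Cd163 values was not tested.

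Ccr2, the marker of recruited cells, separated the hearts into high and low ones, but not by group. It read -4.00, -4.21, -3.42 and -4.28 in control and -4.29, -3.32, -3.43 and -4.10 in dtg hearts. Control 3, dtg 2 and dtg 3 were high and the other 5 were low, with a gap of more than the range of either set between them. Controls averaged -3.97 ± 0.39 (SD, n = 4) and dtg -3.79 ± 0.48 (SD, n = 4). The difference was 0.19 (SE 0.28, interval -0.46 to 0.83, limma, adjusted p = 1). The interval leaves room for levels between 0.728 and 1.78 times those of controls. The Ccr2 probe was dim as well, with 38.1 to 99.7 intensity units. A list of 13 measured genes of monocytes and recruited cells did not follow Ccr2 from heart to heart. This list includes Fn1, Vcan, Spp1, S100a4 and Lgals3, which are not exclusive to these cells. Its medians relative to each gene's own mean were -0.12, -0.059 and -0.18 in control 3, dtg 2 and dtg 3. In the other 5 hearts they lay between -0.046 and 0.33.

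**Figure D3:**
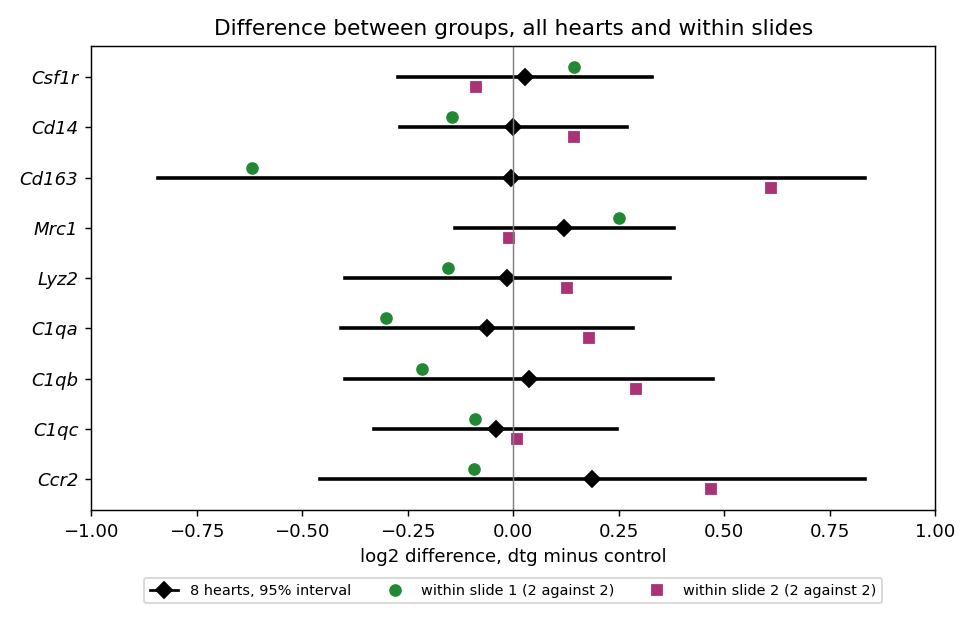
Log2 difference, dtg minus control (horizontal axis), for each measured macrophage marker: black diamonds with lines give the estimate over 8 hearts and its 95% interval from limma, circles the difference within slide 1 and squares within slide 2 (2 hearts against 2 in each). Every interval crosses 0, and the circle and the square lie on opposite sides of 0 for all 9 genes.

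Hearts of both groups shared each of the 2 slides that carried the arrays, 2 per group and slide. The 3 hearts with high Ccr2 were all on slide 2, and control 4 was the slide 2 heart with low Ccr2. Slide 2 was higher than slide 1 by 0.54 (SE 0.21), with means of -3.61 and -4.15, short of the threshold in limma (adjusted p = 0.2). In that comparison 0 of 9 members passed, against 10.3% of all features, and 1 of 9, Ccr2, had an unadjusted p under 0.05, against 20.9%. Without control 4 the slide difference of Ccr2 was 0.77 (limma, adjusted p = 0.00835), and with quantile normalization it was 0.87 (limma, adjusted p = 0.0431). It was 0.27 (limma, adjusted p = 0.12) with normexp background correction that leaves out dark spots, and 0.42 (limma, adjusted p = 0.436) without control 3. Ccr2 passed in 5 of 20 alternatives, in which 1293 to 4912 of 21412 features passed. The other 8 members differed between slides by -0.24 to 0.11. The lowest of these, Cd163, turned to 0.22 with quantile normalization. Within slide 1 the Ccr2 difference between groups was -0.092 and within slide 2 it was 0.47.

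All 9 members had opposite signs within the slides. Of all features 66.7% did so too. Within slide 1, 7 of 9 members were lower in dtg hearts (median -0.14), and within slide 2, 7 of 9 were higher (median 0.14). For Cd163 the values were -0.62 and 0.61, for C1qa -0.30 and 0.18, for C1qb -0.22 and 0.29 and for Lyz2 -0.15 and 0.13. Csf1r, at 0.14 and -0.088, and Mrc1, at 0.25 and -0.0089, ran the other way. The difference between slides in the group effect did not pass limma's interaction test for any member (adjusted p between 0.803 and 0.92), and it passed for 0.00467% of features.

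Resident and recruited markers were set side by side as differences within each probe. The 5 resident members (Cd163, Mrc1, C1qa, C1qb and C1qc) had a median difference of -0.0043 between the groups, with 2 above and 3 below 0. The 3 shared members (Csf1r, Cd14 and Lyz2) had a median of -0.00015, and Ccr2 alone stood at 0.19. The mean of the centred resident markers minus centred Ccr2 was 0.35, 0.32, -0.55 and 0.24 in control and 0.57, -0.47, -0.35 and -0.11 in dtg hearts. It was negative in both groups, in control 3 and in dtg 2, dtg 3 and dtg 4, and the group means were 0.089 ± 0.43 (SD, n = 4) and -0.089 ± 0.46 (SD, n = 4). The balance of resident markers to Ccr2, the only recruited marker here, thus varied between hearts of either group by more than the groups differed. Slide 2 minus slide 1 was -0.56 for this balance, beside -0.18 for dtg minus control, and neither was tested.

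Heart by heart, dtg 4 stood lowest by the median of the 9 members. It held the lowest value for 4 of 9 members (Cd163, Lyz2, C1qa and C1qb). It was above a gene's own mean for 2, Mrc1 and, by its brightest probe, Csf1r, with a median of -0.22 over the 9 members. The other 2 Csf1r probes lay below their own means in dtg 4, at -0.81 and -0.16. In the same heart the median over all features was 0.10, and those of 18 further myeloid genes and 15 further resident markers were -0.042 and -0.059. The list of 13 genes of monocytes and recruited cells had a median of 0.12, with 10 of 13 above their own mean. For the further myeloid genes and resident markers the lowest heart was not dtg 4 but control 2, with medians of -0.12 and -0.10. Without dtg 4 the median difference of the members between the groups was 0.12. The highest medians were 0.095 in dtg 3 and 0.084 in dtg 1. Control 3 had the next lowest median after dtg 4, at -0.14, although its Ccr2 was among the highest. The SD of a member over the 8 hearts ran from 0.12 for Cd14 to 0.54 for Cd163, with a median of 0.19 beside 0.25 for all features. The atrial genes Myl7, Myl4 and Sln summed to between 18.4 and 339 times the 75th percentile in control and between 19 and 239 times in dtg hearts. Control 4, dtg 4 and control 3 had the most of this signal, and its part in the single-heart values was not tested.

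**Figure D4:**
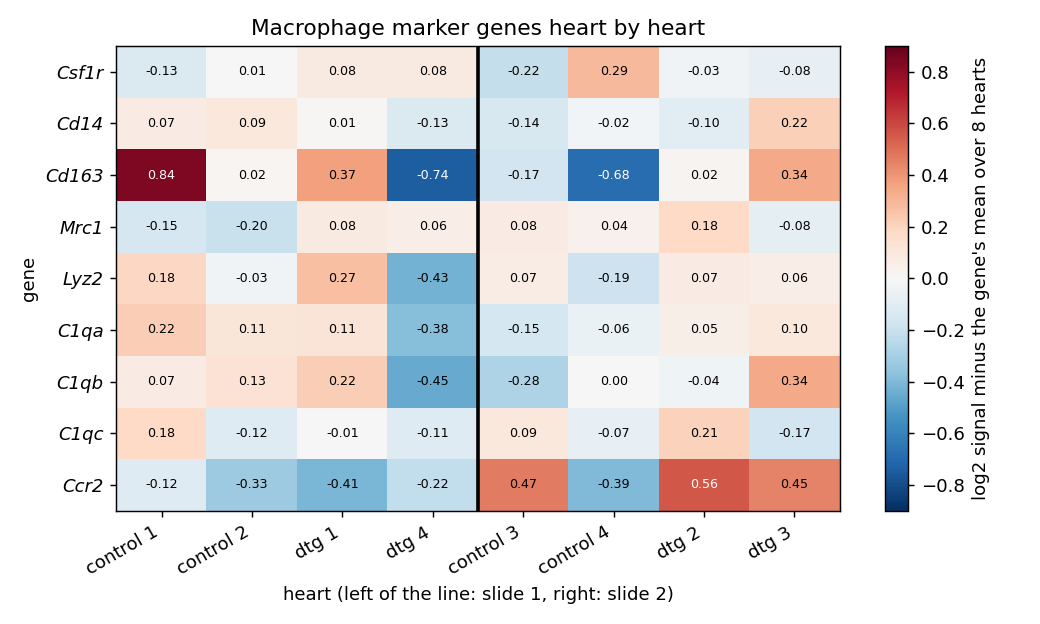
Log2 signal of each macrophage marker (rows) in each heart (columns, slide 1 left of the line and slide 2 right of it) minus the gene's own mean over the 8 hearts, in red above and blue below that mean. Column dtg 4 is below the mean for 7 of 9 genes, and in the Ccr2 row control 3, dtg 2 and dtg 3 stand above it.

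The genes around these markers gave no call either. In each list below 0 genes passed limma's adjusted threshold. Of 15 further resident markers, all well above background, 9 were higher and 6 lower in dtg hearts, with a median of 0.046. Timd4, a receptor for phosphatidylserine on long-lived resident macrophages, read -3.19, -3.66, -3.67 and -3.50 in control and -3.74, -3.86, -4.11 and -3.77 in dtg hearts. It had the smallest p of the 15 and was named for that. Its dtg values all lay below its control values, as 0.547% of all features did in one direction or the other, and the difference of -0.36 (SE 0.15, limma, adjusted p = 1) was -0.33 within slide 1 and -0.40 within slide 2. Of 13 measured genes of monocytes and recruited cells 5 were higher and 8 lower (median -0.025), and Ly6c2 had no matched probe. Of 18 further myeloid genes 12 were higher and 6 lower (median 0.058), and Tyrobp, the signalling adaptor of myeloid receptors, differed by 0.17 (SE 0.10, limma, adjusted p = 1).

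Ligands of these receptors did not pass the test either. Csf1 differed by 0.10 (SE 0.14) and Il34 by 0.11 (SE 0.16), neither past limma's test (adjusted p = 1). Of 8 measured monocyte chemokines 5 were higher and 3 lower, with a median of 0.022. Ccl12, a mouse ligand of CCR2, read -0.97, -1.38, -1.20 and -1.94 in control and -1.03, -0.34, -0.78 and -1.05 in dtg hearts. The groups overlapped, and the difference of 0.57 (SE 0.24, limma, adjusted p = 1) was 0.14 within slide 1 and 1.01 within slide 2. Hp, which encodes the haptoglobin that CD163 binds, differed by -0.27 (SE 0.19), and Hmox1, the enzyme that breaks down haem, by 0.097 (SE 0.12), neither past limma's test (adjusted p = 1). Erythroid genes were higher in dtg hearts for 5 of 5 measured members, with a median of 0.43 and no call. That median was 0.76 within slide 1 and 0.093 within slide 2. Complement genes other than C1q were higher for 8 and lower for 6 of 14, with a median of 0.021. Partners of CD14 were higher for 4 and lower for 2 of 6.

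Markers of other leukocytes gave no call. Of 11 neutrophil genes, which share Lyz2 with macrophages, 6 were measured, with 4 higher and 2 lower and a summed signal of 2.72 to 3.36 in control and 2.49 to 4.23 in dtg hearts, in multiples of the 75th percentile. Mpo, Ngp, Ltf and Mmp8 were well above background on fewer than 4 of the 8 arrays. T and NK cell genes summed to 2.32 to 6.38 in control and 2.76 to 5.71 in dtg hearts, with 4 of 9 higher and 5 lower. These sums parted by slide. On slide 1 controls 1 and 2, dtg 1 and dtg 4 had 6.31, 6.38, 5.71 and 5.26. On slide 2 controls 3 and 4, dtg 2 and dtg 3 had 2.32, 3.46, 2.76 and 3.08. Such a sum weighs the brightest probes most. Medians relative to each gene's own mean lay between 0.019 and 0.37 on slide 1 and between -0.43 and -0.10 on slide 2. Between slides 2 of 9 of these genes passed limma's adjusted threshold, against 10.3% of all features. Of 7 B cell genes 4 were measured, with 2 higher and 2 lower and sums of 0.385 to 0.65 and 0.556 to 0.603. The heart label was met by its markers, with 7 cardiomyocyte genes that summed to 2173 to 2348 times the 75th percentile in control and 2107 to 2370 times in dtg hearts. Igf1r itself differed by -0.43 (SE 0.24, limma, adjusted p = 1) with overlapping groups. The position of its probe relative to exon 3 is not known here, so this does not check the labels.

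By root mean square distance over the 8 hearts, the genes nearest to the mean centred profile of the 9 members were Ppt1 (distance 0.049 on the log2 scale), Trmt61a (0.050), Ilrun (0.057), Mfsd11 (0.059), Fzr1 (0.059) and Cracr2b (0.060). The median distance of the 10400 genes compared was 0.28. Each of the 6 was lowest in dtg 4 or, for Mfsd11, in control 4, and their differences between the groups ran from -0.053 to 0.070. These genes were picked for being nearest to that profile, which was itself lowest in dtg 4. Their small distances, low dtg 4 values and small group differences thus largely follow from the choice.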

How the data were processed

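RNA of 4 control and 4 dtg hearts was measured on 1-colour (Cy3) arrays from 100 ng of total RNA each, per the labels' protocols. For each array the authors deposited scanner output whose processed signal is a linear intensity, from Agilent Feature Extraction 10.7.3.1 with local background subtraction, per the file headers. A value table deposited beside it is in log2 and matched quantile normalized, probe-centred log2 signal (tool not given in the sources used here; found from the values, so that scale, centring and direction were settled by this match). In control hearts (1 to 4) the medians of its columns were -0.0154, -0.0168, 0.0323 and 0.0178, and in dtg hearts 0.0051, 0.00689, -0.0322 and -0.00946.

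Probes were named by unversioned RefSeq accession through a table of GRCm38.p6, which gave 26369 of 39429 probes a symbol. The arrays are annotated on mm9, so no probe positions are given. Control spots and outlier-marked spots were left out. From log2 processed signal each array's 75th percentile (737.6 to 1027 units) was subtracted and spots of a probe were averaged. Probes well above background on at least 4 of 8 arrays were kept (26095), and the brightest probe of a gene was used (21412 features). Between 59.1% and 71.4% of probes were well above background, and no spot was saturated. The small number of arrays limits the precision.

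Differences are dtg minus control by limma 3.58.1 in R 4.3.3 with Benjamini-Hochberg adjustment over all features, checked on simulated data. Slide was tested with group as a covariate. Single genes were also compared by two-sided exact permutation tests. The members and gene lists were chosen with earlier results of these data known. The rule for named genes takes the members with all their probes, up to 3 genes of each list by smallest unadjusted p, and the 6 nearest profiles. The main fit did not pair hearts by replicate number. Deviations of same-numbered hearts correlated by 0.54, -0.54, 0.15 and 0.16, and controls 1 and 4 matched the dtg heart of their own number best. Some same-numbered hearts shared a slide and others did not, so these correlations cannot settle whether the numbers pair samples. Alternatives covered scaling, background, filter, probes, slide, replicate number, variance model and left-out samples.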

Additional observations from a re-analysis of the deposited data

Results flagged for a closer look

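Both flagged values came from dtg 4, and each lay far from the other 3 hearts of its group. Among 22 groups of 4 values (11 probes in either group), 2 held such a value, where chance alone gives about 1 in 20. The Csf1r probe A_52_P602091 read -1.23 in dtg 4, with its nearest dtg heart at -0.23. The C1qa probe A_51_P181451 read 1.49 in dtg 4, with its nearest dtg heart at 1.93. Without dtg 4 the group difference of C1qa was 0.056 in place of -0.062 (limma, adjusted p = 1 with it). The brightest Csf1r probe read 3.88 in the same heart, the same as in dtg 1.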

How the results depend on the processing

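Over 24 alternatives, 0 features and 0 of 9 members passed the adjusted threshold between the groups (limma). At an unadjusted p under 0.05, 13 to 761 features passed. The median of the members ran from -0.14 within slide 1 to 0.14 within slide 2. With the replicate number as a replicate block, 276 features reached an unadjusted p under 0.05 and the median of the members was -0.00015. Since no member was called, turns of direction below are of values near 0, and their cause was not tested. With median scaling, the sign turned for Csf1r (-0.0415), C1qb (-0.0323). With normexp on median signal, offset 50, the sign turned for Lyz2 (0.0204), C1qa (0.13), C1qc (0.15), Ccr2 (-0.0856). With normexp without spots darker than their local background, the sign turned for Lyz2 (0.00111). With mean of all kept probes, the sign turned for Csf1r (-0.00423). Within slide 1, the sign turned for C1qb (-0.22), Ccr2 (-0.0923). Within slide 2, the sign turned for Csf1r (-0.088), Cd14 (0.14), Cd163 (0.61), Mrc1 (-0.00894), Lyz2 (0.13), C1qa (0.18), C1qc (0.00875). With array weights, the sign turned for Lyz2 (0.0549), C1qc (0.0215). Without control 4, dtg 3 and dtg 4, slide as a block, the sign turned for Cd163 (0.0479), Lyz2 (0.11), C1qa (0.0574), C1qc (0.029), Ccr2 (-0.0689). Leaving out 1 heart at a time, the difference ran from -0.0397 to 0.13 for Csf1r, -0.0723 to 0.0438 for Cd14, -0.23 to 0.28 for Cd163, 0.0736 to 0.17 for Mrc1, -0.11 to 0.13 for Lyz2, -0.12 to 0.0558 for C1qa, -0.0705 to 0.19 for C1qb, -0.12 to 0.0113 for C1qc, 0.0334 to 0.37 for Ccr2, and the median of the members from -0.0397 to 0.12. Between slides, 1 member (Ccr2) passed in place of 0 with quantile normalization, the authors' value table, array weights, and without control 4, dtg 3 and dtg 4. Of 21412 features, 1324, 1293, 4912 and 3809 passed in these settings, in that order. Leaving out 1 heart at a time gave 0 to 1, the 1 without control 4, where 2480 features passed. Over all 20 alternatives the slide difference of Ccr2 lay between 0.27 and 0.88 (limma, adjusted p from 0.00472 to 1), lowest with normexp without dark spots. On control 4 and dtg 4 normexp, as planned, gave background means of -1740.5 and -461.9 units, and these arrays held 12 and 4 spots below their own local background. The mean spot signal was not used here, so normexp ran on the pixel median. Cd163 and Ccr2 are the dimmest members and have the widest intervals.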

Other observations

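Genes of antigen presentation were a second group expressed by macrophages and dendritic cells. The list held Ciita, Cd86, Cd80 and Cd40 beside genes of MHC class II. Of 10 genes 9 were measured, and 8 were higher and 1 lower in dtg hearts, with a median of 0.078 and no call by limma. H2-Eb1, a beta chain of class II, read 3.52, 3.14, 3.14 and 3.29 in control and 3.21, 3.78, 3.49 and 3.41 in dtg hearts, a difference of 0.20 (SE 0.15, limma, adjusted p = 1). Slide 1 alone gave a median of -0.14 for the list and slide 2 alone 0.42. Single hearts stood apart in it. In dtg 2 all 9 measured genes were above their own mean (median 0.38), and in dtg 1 none was (median -0.16). The hearts did not sort by Ccr2. Of the 3 with high Ccr2, dtg 2 and dtg 3 had 9 and 7 of 9 listed genes above their mean. Control 3 had 4, and control 1, with low Ccr2, had 8.

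The receptors C3ar1 and C5ar1, which bind complement fragments on myeloid cells, differed by 0.43 (SE 0.25) and 0.21 (SE 0.14) between the groups (limma, adjusted p = 1 for each). Within slides C3ar1 differed by 0.19 and 0.67 and C5ar1 by 0.21 and 0.20. Of lysosomal genes, 4 were higher and 6 lower of 10, with a median of -0.0036.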
